A study of Mus musculus with 12 samples.

Results

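The genes described here encode 10 RNA-binding proteins that set the stability of cytokine mRNAs in macrophages. They were chosen by name and not by a rule on their values, but with earlier results of these data known. They comprise the tristetraprolin family (Zfp36, Zfp36l1, and Zfp36l2), the regnases Zc3h12a and Zc3h12c, and the roquins (Rc3h1 and Rc3h2). The others are the binders of AU-rich elements Elavl1, Hnrnpd, and Khsrp. All 10 were found among the 43626 genes of the count files and all 10 passed the filter on low counts, which kept 14308 genes. RNA-Seq was done on BMDMs, macrophages grown in culture from mouse bone marrow, in 12 libraries, 3 for each of 4 conditions. Cells were kept for 6 hours with PBS as the control, with 3′SL at 100 μg/mL, with LPS at 10 ng/mL, or with LPS + 3′SL at these doses. LPS, from the outer membrane of bacteria, activates the receptor TLR4, and 3′SL (3′-sialyllactose) is a milk oligosaccharide that carries sialic acid and that the labels call HMO. The labels give treatment with injections into mice, so the doses and the time are those of the study's methods for cultured cells. The labels give no strain, sex, age, or donor for these cultures. Nothing in the labels says that libraries of a condition came from separate mice, so all p-values measure only the spread between these libraries.

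Many cytokine mRNAs carry AU-rich elements in their 3′ untranslated region (UTR), built from repeats of AUUUA. Tristetraprolin, the product of Zfp36, binds these elements and recruits the CCR4-NOT complex, which removes the poly(A) tail. ZFP36L1 and ZFP36L2 are its relatives with a similar zinc finger pair. Regnase-1, encoded by Zc3h12a, is an endonuclease that cuts mRNAs such as Il6 at stem-loops, and regnase-3 is encoded by Zc3h12c. Roquin-1 and roquin-2, encoded by Rc3h1 and Rc3h2, bind stem-loops and also recruit deadenylases. HuR (Elavl1) binds AU-rich elements and stabilizes many of the mRNAs, AUF1 (Hnrnpd) has isoforms that mostly favour decay, and KSRP (Khsrp) promotes decay. The mRNAs of several of these proteins carry AU-rich elements themselves.

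The elements are shown for 4 members that range from few to many copies and for 2 mRNAs that these proteins are known to bind. Each sequence is the 30-base stretch of the 3′ UTR with the most copies of ATTTA, written as DNA on the strand of the gene, 5′ to 3′, with ATTTA in capitals. The positions are in GRCm38, on the minus strand except for Il6. They are chr7:28376962-28376991 for Zfp36, chr4:125119058-125119087 for Zc3h12a, chr8:4285777-4285806 for Elavl1, chr17:57021598-57021627 for Khsrp, chr17:35199678-35199707 for Tnf, and chr5:30019716-30019745 for Il6.
Zfp36: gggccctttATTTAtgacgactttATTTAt
Zc3h12a: tgttgatacacattgtatctctgtcATTTA
Elavl1: ttATTTATTTATTTATTTAtttttATTTAt
Khsrp: gagccagccttagaaaatagcaagaATTTA
Tnf: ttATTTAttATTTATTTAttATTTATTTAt
Il6: actttaagttaATTTAtgattgatATTTAt

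Counted over the whole 3′ UTR of 1 GENCODE M21 transcript per gene, with overlapping matches and on the strand of the gene only, Zfp36 held 3 copies of ATTTA in 774 bases. This is 3.88 copies per kb, against a median of 1.23 over 20251 genes with a 3′ UTR of at least 50 bases. Elavl1 held 17 copies (4.03 per kb), Rc3h2 held 25 (4.84 per kb), and Zfp36l1 held 9 (4.9 per kb). Zc3h12a (3.5 per kb), Zc3h12c (3.45), Rc3h1 (2.79), Zfp36l2 (2.74), and Hnrnpd (1.84) also lay above this median, and Khsrp with 1 copy (0.609 per kb) was the member below it. The longer word TATTTAT, which contains ATTTA, was present in 26.7% of the genes and in 7 of the 10 members, all but Zc3h12a, Hnrnpd, and Khsrp. Elavl1 held 8 copies of it and the other 6 held 2 or 3. A longer 3′ UTR has more room for a word, and these shares were not matched for length. The median 3′ UTR over all these genes was 882 bases. Zfp36 (774 bases) and Zc3h12a (856) were shorter, and the other members had 1642 (Khsrp) to 7181 bases (Rc3h1). For comparison, Tnf held 8 copies of ATTTA (10.5 per kb) and Il6 held 6 (14.1 per kb). A match is a description of the letters and not of a bound site.

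Between 20411741 and 26851890 reads per library were counted on genes. Levels are given as CPM, counts relative to a library size scaled by edgeR's TMM factors. Once condition means were subtracted, clustering put the libraries in 3 sets, and each set of 4 held 1 library per condition. The labels do not describe such sets, but each is a run of 4 successive samples in the series. The edgeR tests do not pair the libraries of a set, except where the sets are named as a block. The values of sets 1, 2, and 3 are always listed in this order. The 8 macrophage markers summed to 18891 to 28522 CPM in every library, whereas Cd3e of T cells had 0 reads in all 12 and the 4 lymphocyte markers stayed at 0.911 CPM or less in sum. The sum of 9 stromal markers was 663 to 771 CPM in set 1, 29.6 to 49.6 in set 2, and 73.1 to 121 in set 3, and that of 8 neutrophil markers, of which 0 lacked reads throughout, was highest in set 3 (302 to 1015 CPM) and lowest in set 1 (139 to 221). In bulk RNA, fewer cells of a type and less RNA per cell cannot be told apart.

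In resting macrophages, Zfp36l2 was the most abundant member per kb of exon, with 37.6 ± 7.60 CPM per kb (SD, n = 3). Khsrp followed with 24.8 ± 0.757, then Zfp36 with 20.2 ± 3.81, Zfp36l1 with 15.6 ± 4.21, and Hnrnpd with 13.1 ± 0.102 CPM per kb. The libraries of Khsrp and Zfp36 overlapped, as did those of Zfp36 and Zfp36l1 and those of Zfp36l1 and Hnrnpd, so the order among these neighbours was not larger than their spread. Below them stood Elavl1 (6.53 ± 0.459), Rc3h1 (5.83 ± 0.414), Zc3h12a (4.66 ± 1.06), Zc3h12c (2.61 ± 0.579), and Rc3h2 (2.09 ± 0.103 CPM per kb), of which Rc3h1 and Zc3h12a overlapped. With LPS the order changed. Zfp36 stood first with 214 ± 57.4 CPM per kb, Zc3h12a second with 54.1 ± 12.2, and then Zc3h12c with 21.8 ± 1.09, and the libraries of these 3 genes did not overlap. Zfp36l2 (15.7 ± 3.21), Khsrp (14.8 ± 1.48), and Hnrnpd (13.8 ± 1.05 CPM per kb) followed as neighbours that overlapped. With lengths of the longest transcript in place of all exons, the first 3 ranks in each of these conditions were the same, but Rc3h2 ranked above Zc3h12c with PBS, and with LPS Khsrp and Elavl1 ranked above Zfp36l2 and Hnrnpd, and Rc3h2 above Zfp36l1.

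Zfp36 (ENSMUSG00000044786.5, chromosome 7 from 28376784 to 28380253 of GRCm38, minus strand) was the family member that LPS raised. Its level was 63.9, 60.8, and 85.1 CPM in the PBS libraries and 589, 675, and 969 CPM in the LPS libraries. Every LPS library lay far above every PBS library, and set 3 was the highest in both conditions. The log2 fold change was 3.41 (SE 0.283, 95% interval 2.79 to 4.04, adjusted p = 9.66e-06). This p-value is from the quasi-likelihood test in edgeR, adjusted by Benjamini and Hochberg's method over all genes tested. Genes with an adjusted p below 0.05 that changed at least 1.5-fold are here termed called.

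The relatives of Zfp36 went the other way. Zfp36l1 (ENSMUSG00000021127.6, chromosome 12 from 80107754 to 80113013) was at 40.6, 38.3, and 61.2 CPM with PBS and at 9.82, 8.96, and 20.4 CPM with LPS. The conditions did not overlap, and the log2 fold change was −1.84 (SE 0.388, adjusted p = 0.00311, edgeR). Of its exon bases, 55.9% lie opposite Gm26669 on the other strand, which had 0 to 10 reads per library, and whether counting used the strand is not given in the sources used here. Zfp36l2 (ENSMUSG00000045817.8, chromosome 17 from 84183931 to 84187947) was at 109, 127, and 162 CPM with PBS and at 58.9, 42.9, and 64.8 CPM with LPS. It fell by 1.26 on the log2 scale (SE 0.171, adjusted p = 0.000164, edgeR).

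Both member regnases rose with LPS. Zc3h12a (ENSMUSG00000042677.7, chromosome 4 from 125118423 to 125127840) went from 12.1, 11.3, and 16.9 CPM to 127, 146, and 195 CPM. This was the largest change among the members, with a log2 fold change of 3.54 (SE 0.319, adjusted p = 1.66e-05, edgeR), although its interval of 2.84 to 4.24 overlapped that of Zfp36. Zc3h12c (ENSMUSG00000035164.7, chromosome 9 from 52111344 to 52168572) went from 15.2, 15.9, and 22.4 CPM to 142, 149.6, and 157 CPM, a log2 fold change of 3.07 (SE 0.303, adjusted p = 2.72e-05, edgeR). In both genes the PBS and LPS libraries were well apart.

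The roquins changed little beside the regnases. Rc3h2 (chromosome 2 from 37370069 to 37422903) was at 41.0, 43.0, and 38.9 CPM with PBS and at 66.9, 69.2, and 80.2 CPM with LPS, and its log2 fold change of 0.81 (SE 0.0943, adjusted p = 5.12e-05, edgeR) passed both thresholds. With libraries scaled by total counts, this value was 0.15 and not called (adjusted p = 0.198). Rc3h1 (chromosome 1 from 160906418 to 160974978) was at 60.6, 67.8, and 69.4 CPM with PBS and at 81.6, 83.6, and 109 CPM with LPS. Its log2 fold change of 0.47 missed the adjusted threshold (95% interval 0.07 to 0.88, adjusted p = 0.0552, edgeR) and was −0.19 with total counts.

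Among the binders of AU-rich elements, LPS lowered Khsrp. Khsrp (chromosome 17 from 57021051 to 57031522) was at 104, 109.8, and 108 CPM with PBS and at 56.7, 66.8, and 68.6 CPM with LPS, so that it fell by 0.74 on the log2 scale (SE 0.0966, adjusted p = 0.000112, edgeR). Elavl1 (chromosome 8 from 4285382 to 4325413), at 64.6, 65.3, and 73.2 CPM with PBS, was at 86.4, 87.5, and 99.3 CPM with LPS. Its log2 fold change of 0.43 had an adjusted p of 0.0176 in edgeR but lay under the 1.5-fold minimum, and with total counts it was −0.23. Hnrnpd (chromosome 5 from 99955935 to 99978938), at 95.5, 96.3, and 96.97 CPM with PBS and 102, 94.1, and 109.5 CPM with LPS, overlapped between the conditions (log2 fold change 0.08, 95% interval −0.17 to 0.33) and was at −0.58 with total counts.

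**Figure D1:**
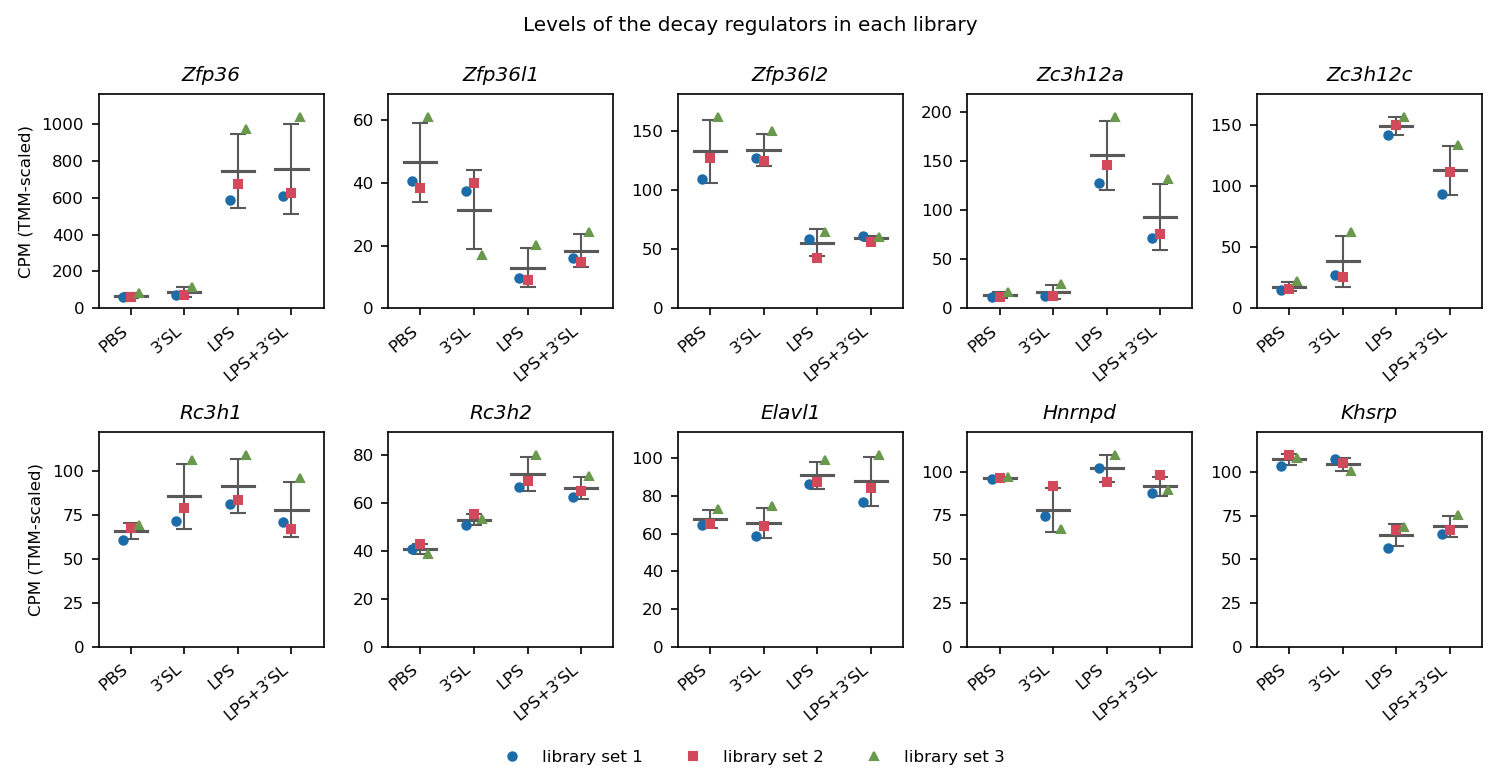
Level of each member in CPM (linear axes from 0, scaled by TMM factors) in the 12 libraries by condition. Symbols mark the library sets, and grey lines are the mean and SD of 3 libraries. Zfp36, Zc3h12a, and Zc3h12c are high in every library with LPS, and Zfp36l1, Zfp36l2, and Khsrp are low with LPS.

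In all, 7 of the 10 members were called for LPS against PBS, 4 higher and 3 lower. Of all 14308 genes tested, 18.3% were called higher and 20.2% lower, 38.5% in either direction, so the share of the members is read against a high background. The median log2 fold change of the members was 0.45, against −0.06 over all genes. Scaling by total counts shifted the median of all genes to −0.71, and under it 3 members were called higher and 3 lower. The members not called differed from PBS by less than 1.5-fold.

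Some markers of other cells moved with LPS as well. The 8 neutrophil markers summed to 139, 264, and 547 CPM with PBS and to 221, 447, and 1015 CPM with LPS, higher with LPS within each set. With LPS + 3′SL they summed to 219, 412, and 936 CPM, against 152, 284, and 302 CPM with 3′SL. Of the 8, 0 were called by edgeR for LPS against PBS. Their log2 fold changes were above 0 in 6 and below 0 in 2 (lowest −0.51). When the sets, which were found in these same counts, entered the model as a block, S100a8, S100a9, Camp, Ltf, and Ngp were called higher, beside 20.5% of all genes, as were Col3a1, Dcn, and Pdgfrb, 3 of the 7 stromal markers tested. The summed macrophage markers were also higher with LPS, at 25650 to 28045 CPM against 18891 to 21331 CPM. Lyz2, which was not called, held much of this sum, with a mean of 12953 CPM with PBS. Of the 8 macrophage markers, 4 were called higher by edgeR, beside 18.3% of all genes. Their log2 fold changes were above 0 in 7 and below 0 in 1 (Mrc1, −0.50). The part of these cells in the changes of the members was not tested.

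The changes altered the makeup of the families, which is described here per kb of exon and without a test. Of the summed CPM per kb of the tristetraprolin family, Zfp36 made up 27.6 ± 1.51% with PBS and 91.3 ± 1.69% with LPS (SD, n = 3). Zfp36l2 went from 51.3 ± 2.63% to 6.88 ± 1.67%, and Zfp36l1 from 21.1 ± 1.63% to 1.80 ± 0.410%. The sum of the 3 genes was 73.4 ± 15.2 CPM per kb with PBS and 235 ± 61.3 with LPS. With 3′SL beside LPS the sum was 241 ± 72.0 CPM per kb and the share of Zfp36 was 90.1 ± 1.89%.

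The summed regnases stood at 7.26 ± 1.63 CPM per kb with PBS, 11.5 ± 5.49 with 3′SL, 76.0 ± 13.2 with LPS, and 48.8 ± 14.4 with LPS + 3′SL. Zc3h12a made up 64.1 ± 1.27% of the regnases with PBS and 51.8 ± 2.98% with 3′SL, and these libraries did not overlap (62.8 to 65.3% and 48.9 to 54.9%). With LPS its share was 70.9 ± 3.46%, and with LPS + 3′SL it was 65.4 ± 4.25%, with libraries that overlapped. The share of Khsrp among the 3 binders of AU-rich elements was 55.9 ± 0.767% with PBS and 39.6 ± 2.48% with LPS.

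**Figure D2:**
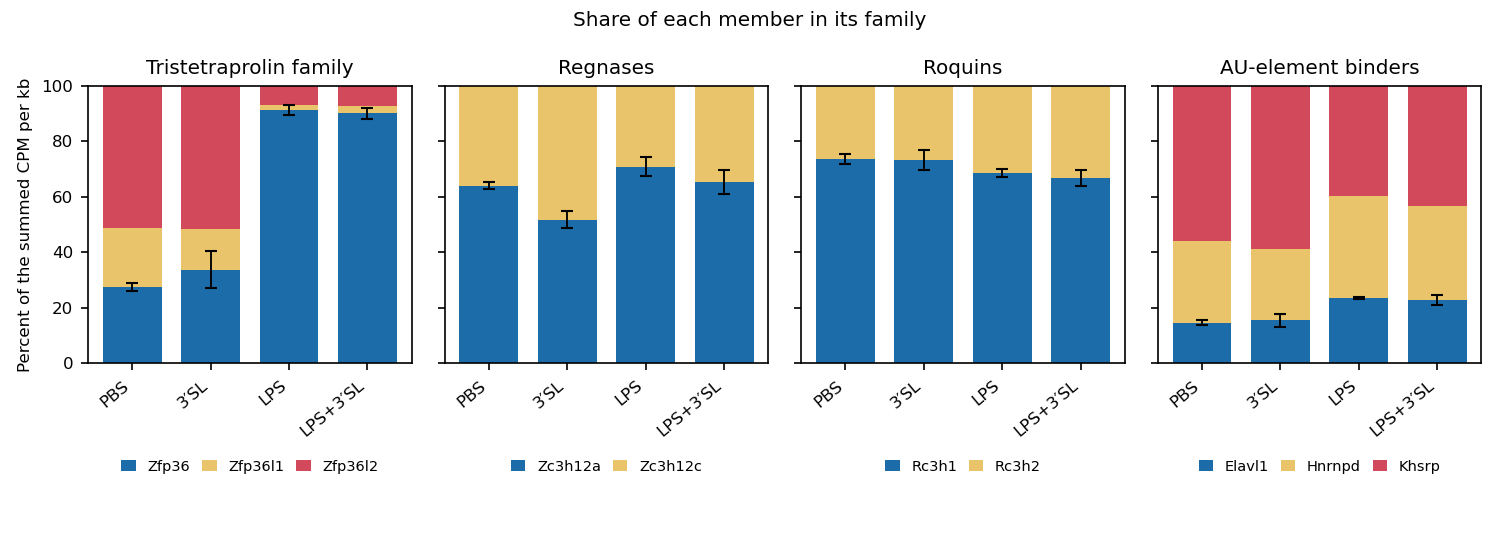
Makeup of each family by condition, as the percentage of the summed CPM per kb of exon (mean of 3 libraries). Error bars are the SD of the share of the lowest segment. Only members are counted, so the regnases leave out Zc3h12d. Zfp36 makes up 91.3% of its family with LPS against 27.6% with PBS. Zc3h12a has its lowest share of the sum with Zc3h12c in cells with 3′SL alone (51.8%).

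Promoters were searched for motifs of factors that LPS is known to activate, and for the word TATAAA. RefSeq promoters (the 250 bases before the RefSeq gene start, GRCm38.p6) were matched for 9 of the 10 members, not for Zfp36l2, and both strands were searched. The κB motif was found in 0 of the 10 windows (Zc3h12c has 2) and in 3.9% of 32851 promoters, which says only that these letters were not in these windows. The AP-1 motif TGANTCA was found for Zfp36l1 and Rc3h1 (6.75% of promoters), TATAAA for Zfp36l1 (12.4%), and the CArG box, the motif of serum response factor, for Zfp36 (1.47%). The stretch of the Zfp36 promoter around this box is shown with the motif in capitals, at chr7:28379267-28379296 on the minus strand. The box starts 58 bases before the RefSeq gene start at 28379228. The GENCODE gene given above starts further upstream, at 28380253, so the box lies within it.
Zfp36: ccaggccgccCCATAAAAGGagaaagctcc

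In cells that also received 3′SL, LPS raised Zfp36 and both member regnases and lowered Zfp36l2 and Khsrp. For LPS + 3′SL against 3′SL, 5 of the 10 members were called, 3 higher and 2 lower, beside 14.3% of all genes higher and 14.8% lower (29.2% in either direction). The called members were Zfp36 (log2 fold change 3.11, adjusted p = 2.65e-05, edgeR), Zc3h12a (2.46, adjusted p = 0.000222), Zc3h12c (1.55, adjusted p = 0.00247), Zfp36l2 (−1.18, adjusted p = 0.000373), and Khsrp (−0.60, adjusted p = 0.000686). Khsrp lay close to the fold minimum and was not called by DESeq2 (−0.56). With total counts, 3 members were called higher and 4 lower, and without library set 2 the called members were 3, Zfp36, Zc3h12a, and Zfp36l2. Neither roquin was called here, with log2 fold changes of 0.32 in Rc3h2 and −0.14 in Rc3h1.

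Zfp36l1 was not called in these cells. It was at 37.3, 40.1, and 17.0 CPM with 3′SL and at 16.0, 14.7, and 24.5 CPM with LPS + 3′SL, a log2 fold change of −0.78 (95% interval −1.63 to 0.08, adjusted p = 0.149, edgeR). Whether it was called depended on the scaling and on the libraries used. Scaling by total counts called Zfp36l1 lower with every library kept. The 3′SL library of set 3 was the low one of its condition. Without this library the log2 fold change was −1.06, and Zfp36l1 was among the 6 members called. In the same library the neutrophil markers summed to 302 CPM, against 547 CPM in the PBS library of its set, while in sets 1 and 2 they were at 152 and 284 CPM with 3′SL and at 139 and 264 CPM with PBS. The part of these cells in the value of Zfp36l1 was not tested.

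**Figure D3:**
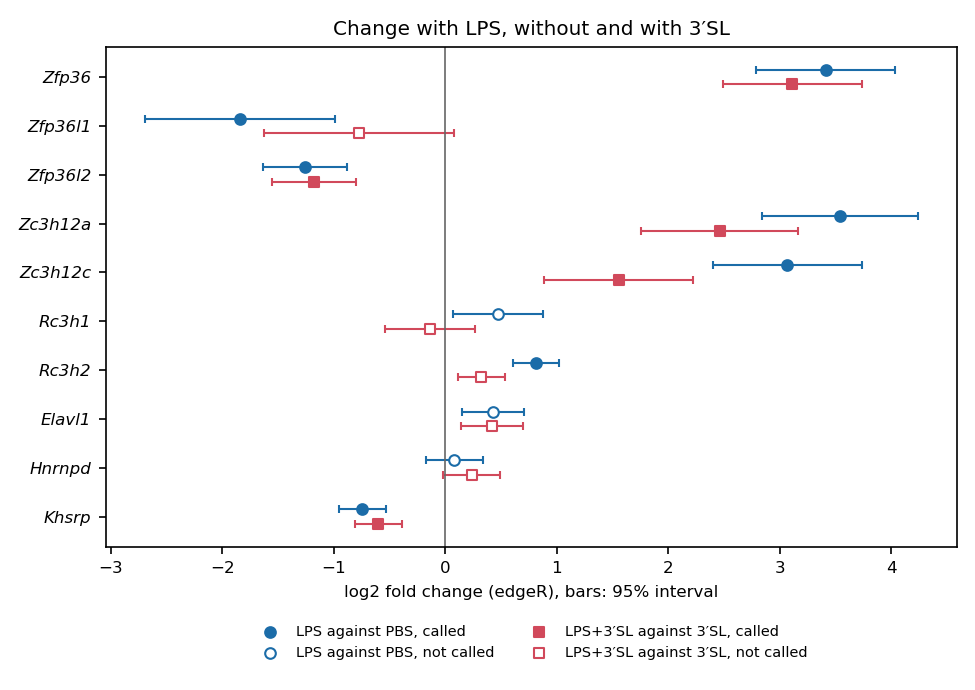
log2 fold change with LPS (x axis, edgeR) of each member, against PBS in cells without 3′SL (circles) and against 3′SL in cells with it (squares). Bars are 95% intervals and filled symbols passed both thresholds. Zfp36 has nearly the same value in both (3.41 and 3.11), and Zc3h12c the lower one with 3′SL (3.07 and 1.55).

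With 3′SL alone, 0 of the 10 members and 0% of all genes were called against PBS by edgeR. At an unadjusted p under 0.05, 3 of the 10 members differed, beside 10.1% of all genes. The one with the largest value was Zc3h12c, at 15.2, 15.9, and 22.4 CPM with PBS and at 27.5, 25.6, and 62.3 CPM with 3′SL. All 3′SL libraries lay above all PBS libraries, and the highest was again the 3′SL library of set 3. The log2 fold change was 1.11 (95% interval 0.44 to 1.78, unadjusted p = 0.00425, adjusted p = 0.33, edgeR), with 0.85, 0.69, and 1.48 within the sets, and it was 0.54 without that library. With the library sets as a block, an alternative that rests on sets found in these same counts, Zc3h12c was called (adjusted p = 0.0131), beside 2.84% of all genes. DESeq2's Wald test did not call it (adjusted p = 0.0606) and called 0.615% of all genes.

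Rc3h2 was at 41.0, 43.0, and 38.9 CPM with PBS and at 50.7, 55.3, and 53.5 CPM with 3′SL. These libraries did not overlap, and the log2 fold change was 0.38 (95% interval 0.17 to 0.58, unadjusted p = 0.00224, adjusted p = 0.281, edgeR). The adjusted p was 0.0366 with DESeq2's Wald test and 0.0296 with the block fit. Neither called Rc3h2, which lay under the 1.5-fold minimum. Hnrnpd was lower in all 3′SL libraries, at 74.6, 91.6, and 67.1 CPM, against 95.5 to 96.97 CPM with PBS (log2 fold change −0.31, adjusted p = 0.437, edgeR). Rc3h1, at 71.4, 79.2, and 107 CPM with 3′SL, was above all PBS libraries with a log2 fold change of 0.38 and an interval that held 0 (−0.03 to 0.78). These 4 of 10 members whose libraries did not overlap stand beside 17.5% of all genes.

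Zfp36 was at 72.9, 70.7, and 119 CPM with 3′SL, which overlapped its PBS libraries (log2 fold change 0.32, 95% interval −0.30 to 0.95). The block fit gave 0.29 (95% interval 0.10 to 0.49, adjusted p = 0.0747). Zc3h12a was at 12.4, 13.1, and 25.1 CPM with 3′SL, also overlapping PBS, with a log2 fold change of 0.33 (95% interval −0.38 to 1.04) that turned to −0.11 without the 3′SL library of set 3. For Zfp36l2, Elavl1, and Khsrp the log2 fold changes lay between −0.04 and 0.01. Zfp36l1 had −0.57, with −0.12, 0.07, and −1.85 within the sets.

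Under LPS, the question was whether 3′SL alters the regulators while cytokine mRNAs are high. Again 0 of the 10 members and 0% of all genes were called for LPS + 3′SL against LPS by edgeR. Zfp36 stood at 589, 675, and 969 CPM with LPS and at 608, 624, and 1037 CPM with LPS + 3′SL. This gave a log2 fold change of 0.02, with a 95% interval of −0.60 to 0.65. Within the sets the values were 0.05, −0.11, and 0.10, and the block fit, which compares libraries of the same set, gave 0.01 with a narrower interval of −0.18 to 0.20 (adjusted p = 0.978).

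Zc3h12a was the 1 member with an unadjusted p under 0.05, beside 6.95% of all genes. It was at 127, 146, and 195 CPM with LPS and at 71.9, 75.5, and 132 CPM with LPS + 3′SL. The conditions overlapped, since the LPS + 3′SL library of set 3 lay above the LPS library of set 1, but within each set the library with 3′SL was lower, by log2 ratios of −0.82, −0.95, and −0.57. The log2 fold change was −0.75 (95% interval −1.44 to −0.05, unadjusted p = 0.0385, adjusted p = 0.672, edgeR). The block fit called it (adjusted p = 0.00359) beside 1.45% of all genes, and DESeq2 did not (adjusted p = 0.543), with 0.79% of all genes called. Leaving out library set 3 called 2 members, Zc3h12a lower and Zfp36l1 higher, beside 1.04% of the genes. For 3′SL against PBS the same left-out set gave 1 member, Zc3h12c, beside 0.604%.

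Zc3h12c was at 142, 149.6, and 157 CPM with LPS and at 93.7, 111, and 134 CPM with LPS + 3′SL. It was the 1 member whose libraries did not overlap in this comparison, beside 12.7% of all genes. The log2 fold change was −0.40 (95% interval −1.07 to 0.26, adjusted p = 0.983, edgeR), with −0.60, −0.43, and −0.23 within the sets. Zfp36l1 was at 9.82, 8.96, and 20.4 CPM with LPS and at 16.0, 14.7, and 24.5 CPM with LPS + 3′SL, higher within each set by 0.71, 0.72, and 0.27 (log2 fold change 0.50, 95% interval −0.36 to 1.36). The other 6 members had log2 fold changes between −0.23 (Rc3h1) and 0.10 (Khsrp).

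**Figure D4:**
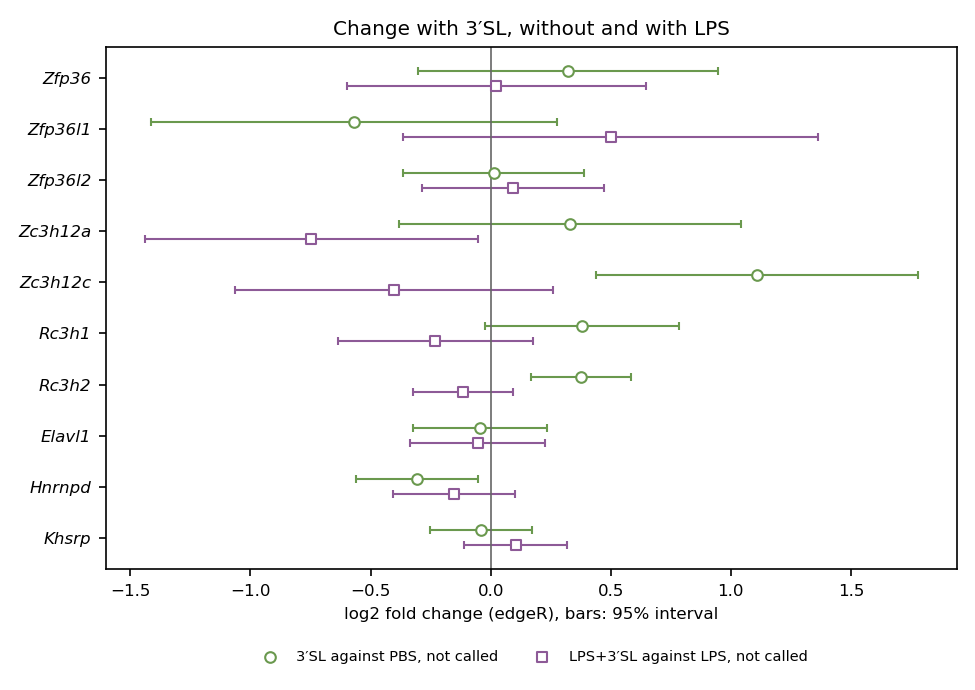
log2 fold change with 3′SL (x axis, edgeR) of each member, against PBS without LPS (circles) and against LPS with LPS (squares), with 95% intervals as bars. No symbol is filled because no member passed both thresholds. Zc3h12c has the highest value without LPS (1.11) and Zc3h12a the lowest with LPS (−0.75).

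With the 1.5-fold minimum and an unadjusted p below 0.05, 1 member differed for 3′SL against PBS (4.33% of all genes) and 1 for LPS + 3′SL against LPS (2.81%). Whether the LPS response itself differed with 3′SL was tested by the interaction of both treatments, a comparison of all 4 conditions that shares its libraries with those above. By edgeR, 0 members and 0% of all genes were called. At an unadjusted p under 0.05, 4 of the 10 members differed, beside 6.09% of all genes. All 4 had the lower log2 fold change with LPS in cells with 3′SL. They were Zc3h12c (−1.51, 95% interval −2.46 to −0.57, adjusted p = 0.646), Zc3h12a (−1.08, −2.07 to −0.08, adjusted p = 0.795), Rc3h1 (−0.61, adjusted p = 0.811), and Rc3h2 (−0.49, adjusted p = 0.588). The value of Zc3h12c joins 1.11 for 3′SL against PBS with −0.40 for LPS + 3′SL against LPS. In Rc3h1 the LPS change was 0.47 without 3′SL and −0.14 with it, and neither was called. Of these 4, Rc3h2 did not reach the 1.5-fold minimum, with which 3 members stood beside 3.96% of all genes.

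Within the sets, the interaction of Zc3h12c was −1.45, −1.12, and −1.70, and that of Zc3h12a was −0.86, −1.17, and −1.14. Without the 3′SL library of set 3, edgeR gave −0.94 in Zc3h12c and −0.64 in Zc3h12a. The block fit called both, Zc3h12a with an adjusted p of 0.011 and Zc3h12c with 0.021, beside 1.55% of all genes. Without library set 3, edgeR called the same 2 genes beside 0.306% of the genes, while DESeq2 called 0 members and 0.308% of all genes. Zfp36 had an interaction of −0.30 (95% interval −1.18 to 0.58) and Zfp36l1 one of 1.07 (−0.14 to 2.28).

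The machinery that these proteins recruit was followed in lists of genes. Of 18 deadenylases and their partners, 3 rose and 1 fell with LPS: Btg2 (log2 fold change 2.31) and Btg1 (1.25), which bind the CCR4-NOT nucleases, rose together with Cnot7 (0.70), which is 1 of these nucleases, and the subunit Cnot10 (−0.99) fell. Beside the 18.3% of all genes called higher and 20.2% called lower in this comparison, the share higher was near the background and the share lower was under it. Of 17 genes of decapping and 5′ to 3′ decay, the decapping enzyme Dcp2 (2.14), the exonuclease Xrn1 (2.04), and the decapping factor Dcp1a (1.39) rose, and Lsm2 (−1.34), of the LSM ring, fell, again with a share higher near the background. The exosome, which degrades mRNA from the 3′ end, and the SKI complex had 0 genes higher and 6 of 14 lower, led by Exosc7 (−1.84), Exosc5 (−1.31), and Exosc8 (−1.27), beside the same 20.2% of all genes lower. The median log2 fold changes of these lists were −0.03, −0.07, and −0.50, against −0.06 over all genes.

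For LPS + 3′SL against LPS, 0 genes of the 3 lists were called by edgeR. Btg2 was at 37.0, 37.3, and 62.2 CPM with LPS and at 23.4, 27.5, and 39.4 CPM with LPS + 3′SL, a log2 fold change of −0.60 (adjusted p = 0.62). It was the 1 gene of these lists with an unadjusted p under 0.05 there, beside 6.95% of all genes. For 3′SL against PBS, all 14 exosome and SKI genes had values under 0, beside 7110 of the 14308 genes tested. These ranged from −0.60 to −0.0006 on the log2 scale, with a median of −0.29. The genes were measured in the same libraries, so they are not 14 separate observations. The unadjusted p was under 0.05 for 5 of the 14, beside 10.1% of all genes, and 0 were called.

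Of the 17 related RNA-binding proteins that were tested (of 21 listed), 4 rose and 1 fell with LPS, the first a share near the 18.3% of all genes called higher and the second under the 20.2% called lower. Arid5a, which stabilizes Il6 mRNA and opposes regnase-1, was at 4.57, 3.54, and 2.77 CPM with PBS and at 72.4, 109, and 139 CPM with LPS. Its log2 fold change of 4.87 (adjusted p = 3.23e-06, edgeR) was larger than that of any member. N4bp1 (3.14), an endonuclease relative of the regnases, and Fxr1 (0.95) also rose, and Tial1 (−0.69), which binds AU-rich elements, fell. With 3′SL beside LPS, Arid5a was at 72.0, 88.7, and 144 CPM, with a log2 fold change of −0.07 against LPS (95% interval −0.76 to 0.61).

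Of 18 genes that control the members, 8 rose and 1 fell with LPS, beside 18.3% of all genes higher and 20.2% lower. Mapkapk2, the kinase that phosphorylates tristetraprolin, rose from 155, 159.8, and 169 CPM to 1255, 1521, and 1223 CPM (log2 fold change 3.05, adjusted p = 4.47e-07, edgeR). Dusp1 (2.42), a phosphatase that switches off the p38 kinase upstream of it, rose as well, and Usp36 (−1.02), a deubiquitinase, fell. Malt1, the protease that cleaves regnase-1 and the roquins, went from 21.7, 29.2, and 29.95 CPM to 399.6, 471, and 513 CPM. Its log2 fold change of 4.10 (adjusted p = 1.06e-06, edgeR) was the largest of this list.

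The values of Malt1, Mapkapk2, and Dusp1 with 3′SL beside LPS were picked for the text after they were seen. Malt1 was at 170.1, 212, and 299 CPM with LPS + 3′SL. These libraries lay below all LPS libraries, and libraries did not overlap for 12.7% of all genes. The log2 fold change was −1.02 (95% interval −1.51 to −0.53, adjusted p = 0.171, edgeR), with −1.23, −1.15, and −0.78 within the sets. Malt1 was not called by edgeR. It was called by DESeq2 (adjusted p = 0.0074), beside 0.79% of all genes, and by the block fit (adjusted p = 0.000833), beside 1.45%. Mapkapk2 was at 976, 1162, and 1013 CPM with LPS + 3′SL, again under all LPS libraries, with a log2 fold change of −0.34 (adjusted p = 0.672, edgeR). Dusp1 had 0.03 (95% interval −1.37 to 1.44).

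Finally, 20 of 23 mRNAs that are known targets of tristetraprolin, regnase-1, or the roquins were tested. With LPS, 16 rose and 0 fell, beside 18.3% of all genes higher and 20.2% lower, and the median log2 fold change was 5.04. With LPS + 3′SL, 17 of the 20 were lower than with LPS and 3 were higher, beside 7332 of all 14308 genes lower, with a median log2 fold change of −0.93 against −0.01 over all genes. Of them, 0 were called by edgeR and 9 had an unadjusted p under 0.05, beside 6.95% of all genes. Several of these genes are ones in which the study describes a decrease with 3′SL in these libraries, so the list is not independent evidence of its direction.

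Il6 was at 66.9, 105, and 88.5 CPM with LPS and at 9.41, 15.4, and 29.8 CPM with LPS + 3′SL (log2 fold change −2.26, adjusted p = 0.153, edgeR). Csf3, encoding the growth factor G-CSF, went from 5.08, 5.09, and 9.88 CPM to 1.26, 0.552, and 2.84 CPM (−2.11, adjusted p = 0.367, edgeR). Ptgs2, which encodes cyclooxygenase-2, had −1.75 (adjusted p = 0.549, edgeR). These 3 genes were picked as the targets with the largest change and no overlap between these conditions. That every LPS + 3′SL library was below every LPS library was thus set by the choice. Zfp36, which was not picked this way, overlapped between the conditions. Tnf was at 1044, 1179, and 591 CPM with LPS and at 459, 506, and 412 CPM with LPS + 3′SL (−1.03, 95% interval −2.28 to 0.21, adjusted p = 0.833, edgeR). The counts are of mRNA levels and hold no measure of decay or of protein.

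**Figure D5:**
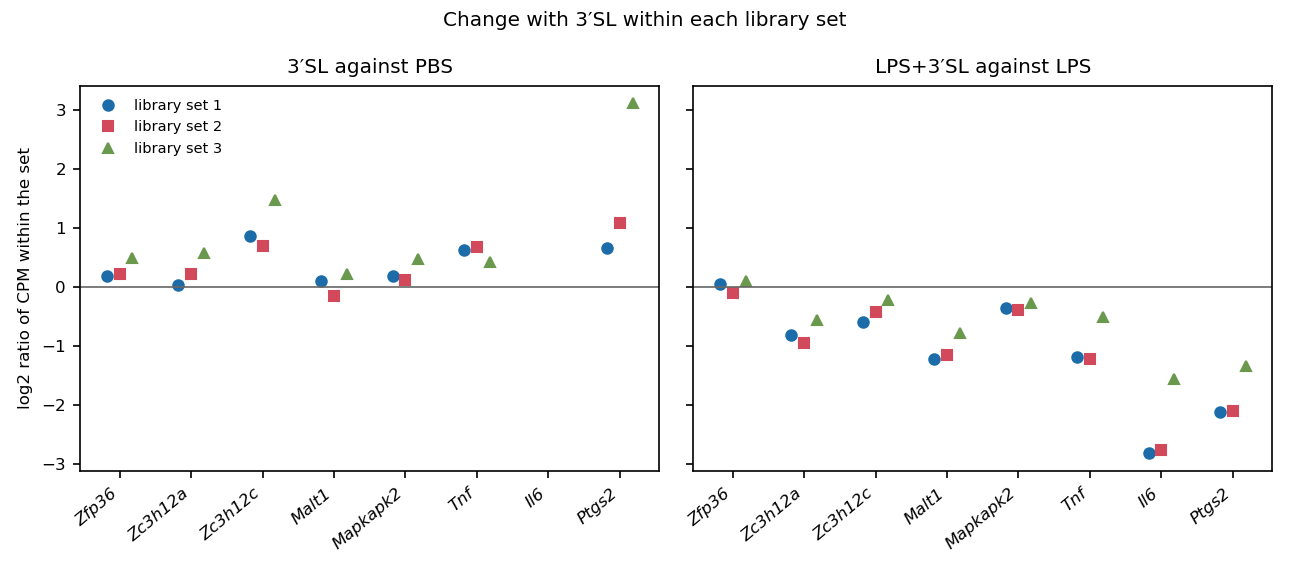
log2 ratio of CPM (y axis) between the library with 3′SL and the library without it in each library set, without LPS on the left and with LPS on the right, for 3 members, 2 of their regulators, and 3 target mRNAs. Each symbol is a ratio of 2 libraries, and Il6 is left out on the left because it had 11 reads or fewer per library. With LPS, Zfp36 lies near 0 in all sets (−0.11 to 0.10), and Zc3h12a, Malt1, and Il6 lie below 0 in all sets.

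Over the 12 libraries, the genes whose log2 CPM was most like that of Zfp36 were Rnf114 (Pearson's r = 0.998), Mndal (0.998), and Il13ra1 (0.998), and those most like Zc3h12a were Tank (0.997), Tnfrsf1b (0.997), and Kmt5a (0.996). The libraries form a group with and a group without LPS, so these values mainly reflect that step. For each of the 2 members, 1219 genes had an r over 0.95.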

How the data were processed

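RNA-Seq of 12 BMDM libraries was analysed. Per library, the authors deposited unnormalized whole-number counts of reads on each gene. Library pairs of a condition differed by more than sampling noise (chi-square of at least 14.9 per gene). The submitters' processing notes name FastQC, Trimmomatic, STAR, HTSeq, and DESeq2; their versions, the genome build, and the strand setting of counting are not given in the sources used here. Gene identifiers were matched without version to GENCODE M21 (GRCm38), which named 42462 of 43626.

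Counts were fitted in R 4.3.3 with edgeR 4.0.16 (filterByExpr, TMM factors from 0.7 to 1.3, quasi-likelihood, 1 mean per condition over all libraries, Benjamini-Hochberg adjustment over 14308 genes). The common biological coefficient of variation was 0.31, and 0.133 with library sets as a block. The sets were found by clustering residuals (mean r 0.596 within and −0.346 between sets). The edgeR test was also run on simulated libraries drawn without such sets, so that run cannot speak to libraries grouped in sets. Alternatives were DESeq2 1.42.0, other scalings and filters, only the conditions compared, the block, and leaving out libraries. Leaving out sets and the unadjusted p were chosen after seeing the data.

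The members and gene lists were chosen with earlier results of these data known. Named are all members, up to 3 called genes per list and direction for LPS against PBS, Tnf, Il6, the 3 targets with the largest change and no overlap, and the 3 genes most like Zfp36 and Zc3h12a. Of the list genes, the values of Btg2, Arid5a, Mapkapk2, Malt1, and Dusp1 with 3′SL were picked for the text after they were seen. Depth limits the precision of low genes such as Csf3.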

Additional observations from a re-analysis of the deposited data

How the results depend on the processing

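For LPS against PBS, 7 members were called under all alternatives except total counts (6) and no fold minimum (8). For LPS + 3′SL against 3′SL, 5 were called, 3 without library set 2, and 4 to 7 otherwise. Without set 2, 3516 and 2183 genes in all were called in these comparisons instead of 5502 and 4171. In the 3′SL comparisons 0 members were called, except with the library-set block (1 for 3′SL against PBS, 1 for LPS + 3′SL against LPS, and 2 for the interaction), without library set 3 (1, 2, and 2), and at the unadjusted p with the fold minimum (1, 1, and 3). In these comparisons, all genes called were 0, with DESeq2 88, 113, and 44, with the block 406, 207, and 222, and without set 3 87, 149, and 44. For LPS + 3′SL against LPS, 1 gene was called with either other scaling, 2 without the filter, and 0 to 8 with a library left out.

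Signs turned with total counts for LPS against PBS in Rc3h1 (−0.19), Elavl1 (−0.23), and Hnrnpd (−0.58), and for LPS + 3′SL against 3′SL in Rc3h2 (−0.16), Elavl1 (−0.068), and Hnrnpd (−0.25). They turned in the same setting for Zfp36l2 with 3′SL against PBS (−0.072) and for Elavl1 in LPS + 3′SL against LPS (0.026) and the interaction (0.16). Without the filter, Zfp36l2 had −0.0035 for 3′SL against PBS and Elavl1 0.021 in the interaction. Without library set 1, Zfp36l2 had −0.073 for 3′SL against PBS. Without set 2 it had −0.031 for LPS + 3′SL against LPS and −0.059 in the interaction. Without set 3, Zfp36 had −0.026 for LPS + 3′SL against LPS and Elavl1 0.0045 in the interaction.

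With each library left out in turn, 3′SL against PBS ranged from −0.11 to 0.18 in Zfp36l2, −0.11 to 0.53 in Zc3h12a, and −0.18 to 0.030 in Elavl1. LPS + 3′SL against LPS ranged from −0.27 to 0.26 in Zfp36, −0.062 to 0.22 in Zfp36l2, and −0.17 to 0.033 in Elavl1. LPS + 3′SL against 3′SL ranged from −0.31 to 0.067 in Rc3h1. The interaction ranged from −0.59 to 0.022 in Zfp36, −0.088 to 0.21 in Zfp36l2, and −0.13 to 0.13 in Elavl1. None of these values was called over all libraries with TMM factors, and the cause was not tested. Each condition has 3 libraries, which limits the precision of small changes.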
